A study of Mus musculus with 298 samples.

Results

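The activity-induced genes Arc, Homer1, Npas4, Bdnf, Vgf, Btg2, Ier2, Dusp1, Dusp6 and Gem, were followed neuron by neuron in the suprachiasmatic nucleus (SCN) of the mouse, the clock of the hypothalamus. These 10 members were taken by name from the 22800 genes of the deposited count table and set against Fos in the same cells. Each neuron was recorded by patch clamp in a brain slice, and its cytoplasm was then drawn into the pipette for RNA sequencing. Mice lived in cycles of 12 h light and 12 h dark, and slices were cut near ZT0, at lights on, for day cells or near ZT12 for night cells. The labels sort neurons by time of day, by firing and by cFOS. Day slices gave 51 cFOS+ and 27 cFOS- cells that were active, and 17 cFOS+ and 32 cFOS- cells that were silent. Night slices gave 41 cFOS+ and 46 cFOS- active cells, with 35 cFOS+ and 35 cFOS- silent ones. A further 14 depolarized cells stood outside these 8 groups. Strain, genotype, sex, age and the way the cFOS label was assigned were not given in the sources used here. Several neurons could come from 1 slice, and no label names the animal or slice, so each group counted as 1 sample and the differences below were not tested.

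Electrical activity and calcium entry switch on a first wave of genes within minutes, among them the transcription factor gene Fos, through CREB and other factors already present in the cell. Many products of that wave act away from the promoter. Arc removes AMPA receptors from synapses, HOMER1 links metabotropic glutamate receptors to calcium stores, BDNF and VGF peptides are secreted, the DUSP phosphatases switch off MAP kinases, and GEM restrains calcium channels. In the SCN, light and neuronal firing are known inducers of several of these genes.

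The promoters of Btg2, Dusp1 and Fos are shown because these genes varied most closely together from cell to cell, as described below. Each line gives the 250 bases before the transcription start, from RefSeq on build GRCm38.p6, 5' to 3' on the gene's strand. Capitals mark the cAMP response element TGACGTCA, to which CREB binds, and its opening 5 bases TGACG, read on either strand. The full element holds the short motif on both strands, overlapping.
Btg2 (chr1:134079156-134079405, minus strand): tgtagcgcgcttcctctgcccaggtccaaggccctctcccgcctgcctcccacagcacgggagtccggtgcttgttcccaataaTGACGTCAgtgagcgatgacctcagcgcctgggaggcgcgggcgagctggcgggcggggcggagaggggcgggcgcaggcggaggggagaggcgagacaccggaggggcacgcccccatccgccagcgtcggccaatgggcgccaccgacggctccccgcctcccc
Dusp1 (chr17:26508473-26508722, minus strand): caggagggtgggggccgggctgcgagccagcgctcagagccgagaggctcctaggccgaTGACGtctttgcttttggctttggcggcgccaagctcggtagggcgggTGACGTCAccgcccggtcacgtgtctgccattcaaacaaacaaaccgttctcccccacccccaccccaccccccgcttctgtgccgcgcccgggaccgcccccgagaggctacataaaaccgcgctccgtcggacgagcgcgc
Fos (chr12:85473640-85473889, plus strand): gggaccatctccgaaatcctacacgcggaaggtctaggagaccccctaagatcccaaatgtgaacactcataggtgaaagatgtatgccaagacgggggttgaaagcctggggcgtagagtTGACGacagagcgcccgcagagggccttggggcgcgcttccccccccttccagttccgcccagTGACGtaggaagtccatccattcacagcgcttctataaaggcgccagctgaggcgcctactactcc
Counted from the transcription start, the full element began at position -166 in Btg2 and -143 in Dusp1. It was found in 1.79% of all 32851 RefSeq promoter windows, which run from 250 bases before to 50 bases after a start. Fos held the short motif alone, at 2 places. Windows were available for 6 members (13 windows, several of them from Bdnf and more than 1 from Homer1). TGACG was found in 5 of the 13, 1 window each of Bdnf, Btg2, Dusp1, Homer1 and Npas4, and in 20.8% of all windows. A gene with more windows has more places for a match, so the number of members is not comparable with that share. Homer1 and Dusp1 each had a window with 3 matches to TGACG, counted on both strands, which 1.03% of all windows reached. The AP-1 motif TGANTCA was found in 1 of the several Bdnf windows (7.81% of all windows) and the E-box CACGTG in Dusp1 (7.15%). The EGR motif GCGTGGGCG (0.612%) and the CArG box (1.63%) matched no window of a member. A match is only a run of letters and says nothing about binding.

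Each library held 3187057 to 25535298 reads (median 6320667). The cells carried neuronal RNA: Snap25, a synaptic vesicle fusion gene, had a read in 99.6% of the active and silent cells, and Gad1, an enzyme of GABA synthesis, in 92.3%. Of the 10 neuron markers followed, the least widely read were Slc32a1 in 46.1%, Rbfox3 in 41.9% and Nefl in 27.8% of these cells. Microglial RNA was also present, with at least 100 CPM of 11 summed microglia markers in 37.5% of cells (CPM, counts per 1e6, are reads scaled to the total of the cell). Summed oligodendrocyte markers reached 100 CPM in 45.1% and summed astrocyte markers in 34.2% of cells. No cell was left out below for carrying oligodendrocyte or astrocyte markers. The summed neuron markers reached 100 CPM in 100% of cells and 8 summed markers of SCN neurons in 74.3%. A pair of night silent cells, 1 of each cFOS label, shared almost the same profile (correlation 0.9995 across genes, against 0.696 for the next closest pair). They were averaged as 1 cell without a cFOS label, which left 165 active and 118 silent cells. In pipette samples of this kind, less RNA per neuron and a lower share of that neuron's cytoplasm cannot be told apart.

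Group levels below are pooled CPM, the summed reads of a group over its summed totals, with exact Poisson 95% intervals that cover the counting of reads only. Ratios are log2 of (CPM + 1) over (CPM + 1), and 2-fold on that scale is the size used for a call. Because reads are not counted per transcript length, levels are compared within a gene and not between genes.

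Most members were read in a minority of neurons, and a small number of cells carried much of each gene's signal. To compare shares across depths, every cell was thinned to 4210000 reads. The 29 cells below that depth and the near-identical pair were not used for shares. The secreted precursor Vgf had a read in 94.9% of the rest (exact 95% interval 91.4 to 97.2%), and the MAP kinase phosphatase Dusp1 in 79.4% (73.9 to 84.3%). Btg2, an antiproliferative cofactor of the CCR4-NOT deadenylase, was read in 51.4%, the GTPase Gem and the scaffold Homer1 in 46.2% each, and Arc in 37.2%. Ier2 was read in 33.6%, the ERK phosphatase Dusp6 in 21.3%, the transcription factor Npas4 in 17.8% and the neurotrophin Bdnf in 10.3% (6.82 to 14.7%). These shares follow transcript length and level together. The highest 5 cells held at least 50% of the summed CPM of Bdnf, and the same took 6 cells for Npas4, 8 for Dusp6, 9 for Ier2, 10 for Arc, 29 for Dusp1 and 49 for Vgf. A pooled level of the rarer genes is therefore the level of a handful of neurons.

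**Figure D1:**
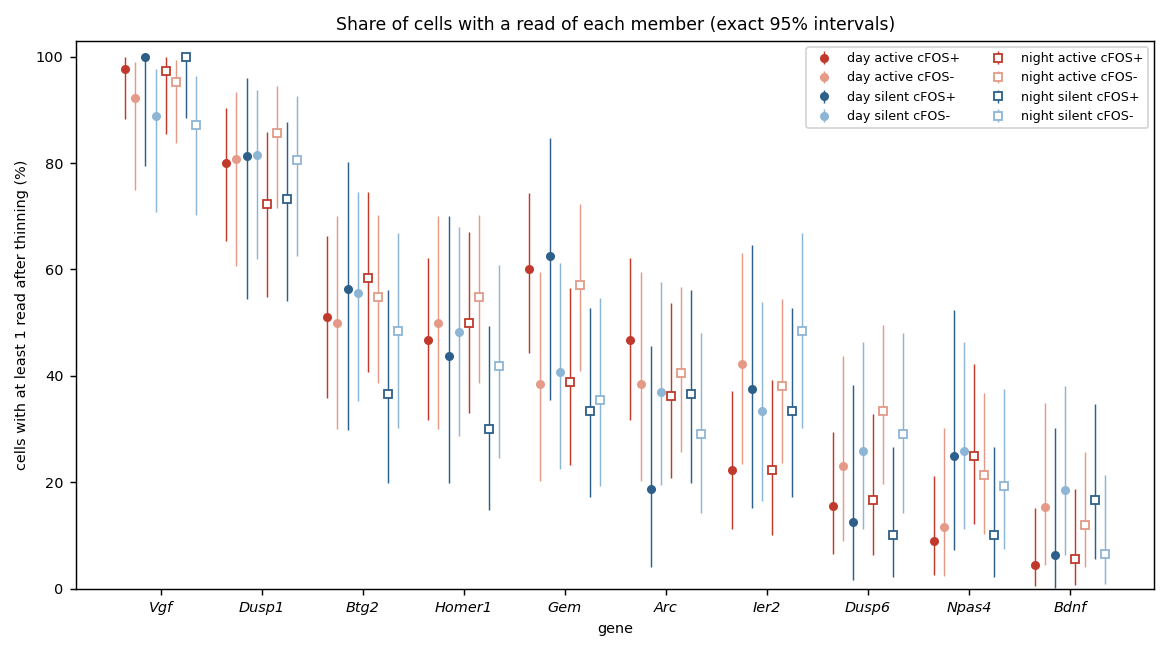
Share of cells (percent, vertical axis) with at least 1 read of each member (horizontal axis) after thinning to 4210000 reads, in the 8 groups, with exact 95% intervals; filled circles are day and open squares night. Vgf lies between 87.1% and 100% in every group and Bdnf between 4.44% and 18.5%, and for each gene the intervals of all 8 groups overlap one another.

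The 10 highest cells, 1 for each member, were 7 different neurons, 6 times an active cell and 4 times a silent one. One day active cFOS+ neuron was the highest for both Arc, at 9120.3 CPM, and Npas4, at 458 CPM. Another was the highest for Btg2 (5741 CPM) and Gem (2825 CPM). One night silent cFOS- neuron was the highest for Dusp1 (19714 CPM) and Ier2 (4307 CPM). These 3 neurons had more Fos than 83.7%, 97.2% and 96.5% of all cells, in that order. Single neurons thus carried high levels of 2 members at once, and silent neurons were among them.

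**Figure D2:**
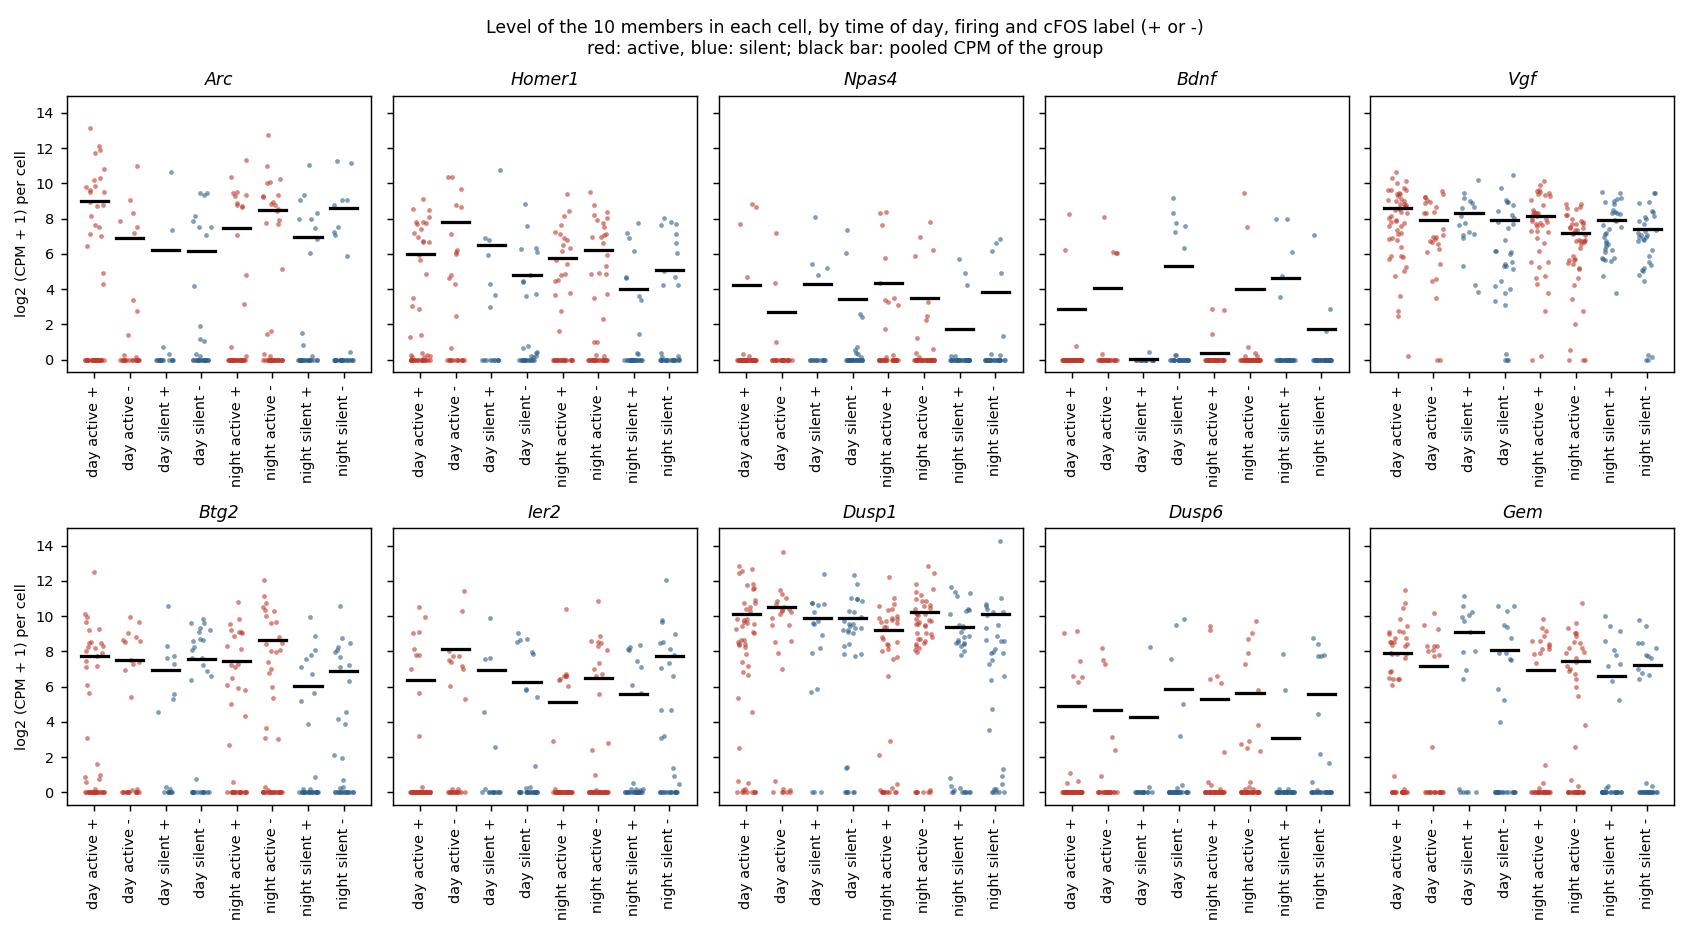
Level of each member in every cell as log2 (CPM + 1) (vertical axis) in the 8 groups (horizontal axis; + and - are the cFOS labels), with active cells in red, silent cells in blue and the pooled CPM of the group as a black bar. Active and silent cells overlap for all 10 genes, and most cells sit at 0 for Npas4, Bdnf and Dusp6.

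Active neurons had more Homer1, Btg2 and Arc than silent neurons, each by an amount near 2-fold, while Bdnf was lower by less than 2-fold and the other 6 members lay within 1.5-fold. Homer1 and Btg2 were the 2 of 10 members at least 2-fold higher in the 165 active than in the 118 silent cells. Among all genes with at least 5 CPM in either group, 7.21% were at least 2-fold higher. All 3 genes were higher in active cells under all 9 alternative settings, but the side of 2-fold depended on the setting. Homer1 was past 2-fold in 7 of the 9, with log2 ratios from 0.90 among lower cell numbers (the numbers in the cell titles) to 2.00 among higher ones. Btg2, called in the pooled value, was past it in 2 of the 9 (0.62 to 1.24), and Arc, not called there, in 5 of the 9 (0.49 to 1.70). No member was at least 2-fold lower, against 6.28% of all genes. The firing label comes from the recording, so this comparison asks how the members differ with firing at the time of collection.

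Of the synaptic genes, Arc (chromosome 15, 74669083 to 74672570, minus strand; GENCODE M21 on GRCm38, as for the positions below) ran from 0 to 9120.3 CPM in active cells with a median of 0, and from 0 to 2449 CPM in silent cells with a median of 0. Pooled, active cells had 316.8 CPM (315.8 to 317.8) of Arc, against 174.0 CPM (173.1 to 174.95) for silent cells, a log2 ratio of 0.86. The upper quartile of cells began at 284.1 CPM in active and at 2.53 CPM in silent cells, and a thinned read was found in 40.9% of active and 31.7% of silent cells, with overlapping intervals. Active cells were thus higher mainly in their upper part. A single silent neuron held 44.2% of all silent Arc reads, and leaving out the highest active and the highest silent cell gave 1.43. Arc was higher in active cells in 3 of 4 strata, the strata being the combinations of time and cFOS label. By group, its level was highest in day active cFOS+ cells (517.96 CPM) and lowest in day silent cFOS- (70.6 CPM) and day silent cFOS+ cells (72.4 CPM), and 1 cell gave 91.1% of the reads of the day silent cFOS+ group. Within the cFOS+ cells by day, the log2 ratio of active over silent was 2.82.

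Homer1 (chromosome 13, 93299635 to 93405129, plus strand) ran from 0 to 1336 CPM in active cells (median 0.197) and from 0 to 1720.3 CPM in silent cells (median 0). The summed reads gave 90.98 CPM (90.4 to 91.5) for active cells and 37.8 CPM (37.4 to 38.2) for silent ones, a log2 ratio of 1.25. It was higher in active cells in 3 strata, by 2.98, 1.73 and 1.13 on the log2 scale, and lower in day cFOS+ cells, at -0.52. Few cells set both ends of this range. In the day cFOS- stratum, at 2.98, 2 of the 27 active cells (1336 and 1292 CPM) held at least 50% of the summed CPM, with a median cell at 0.564 CPM, and in the day cFOS+ stratum 1 silent neuron gave 79.7% of the silent reads. Active and silent cells overlapped throughout, and the shares with a thinned read were 50.3% and 40.4%, active first. The counts of the table are per gene, so the short activity-induced Homer1a and the long scaffold forms were counted together.

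Npas4 (chromosome 19, 4984355 to 4990316, minus strand), a transcription factor gene induced by calcium entry, was read in few cells. It ran from 0 to 458 CPM in active and from 0 to 273.2 CPM in silent cells, with a median of 0 in both. Its pooled level was 14.1 CPM in active and 9.92 CPM in silent cells (log2 0.47), and it was higher in active cells in 1 stratum of 4. Cells with a thinned read were 16.8% of active and 19.2% of silent cells, the opposite order, so no direction was read.

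The secreted factors did not follow firing in 1 direction. Bdnf (chromosome 2, 109674700 to 109727007, plus strand) ran from 0 to 699.5 CPM in 165 active cells, of which 17 had a read, and from 0 to 569.5 CPM in 118 silent cells, of which 17 had a read. The pooled level was 8.78 CPM in active and 17.9 CPM in silent cells (log2 -0.95), with 2 strata higher and 2 lower, from -4.26 to 2.85. In 6 of the 8 groups a single cell gave over 50% of the reads. Exons of Bdnf overlap the antisense gene Gm45346, and since the use of strand is not stated, the reads of both cannot be told apart. Vgf (chromosome 5, 137026392 to 137033351, plus strand), whose precursor is cut into peptides released from dense-core vesicles, ran from 0 to 1626 CPM in active cells with a median of 182 CPM, and from 0 to 1432 CPM in silent cells with a median of 133.9 CPM. Vgf stood at 269.0 CPM in active and 236.7 CPM in silent cells, a log2 ratio of 0.18 that ran from -0.23 to 0.29 across strata. Nearly every neuron carried Vgf whether it fired or not.

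Btg2 (chromosome 1, 134075170 to 134079120, minus strand) ran from 0 to 5741 CPM in active cells (median 0.221) and from 0 to 1508 CPM in silent cells (median 0.142). Active cells together had 249.3 CPM (248.4 to 250.2) and silent cells 122.1 CPM (121.3 to 122.8), a log2 ratio of 1.02, just past 2-fold. The ratio was 1.42 and 1.79 in the night strata with cFOS+ and cFOS- cells, 0.79 in day cFOS+ cells and -0.07 in day cFOS- cells. About as many active (53.7%) as silent cells (48.1%) had a thinned read. Ier2 (chromosome 8, 84661331 to 84662852, minus strand), which encodes a nuclear immediate early protein, stood at 106.4 CPM in active and 114.1 CPM in silent cells (log2 -0.10), with a median cell at 0 in both, and was higher in active cells in 1 stratum.

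In pooled reads the phosphatases were nearly level. Dusp1 (chromosome 17, 26505590 to 26562128, minus strand), which removes phosphate from p38, JNK and ERK, ran from 0 to 12825 CPM in active cells with a median of 502.1 CPM, and from 0 to 19714 CPM in silent cells with a median of 367.6 CPM. Pooled, it was at 1079 CPM in active and 904.4 CPM in silent cells, a log2 ratio of 0.25 with 3 strata higher. Dusp6 (chromosome 10, 99263231 to 99267489, plus strand), which acts on ERK, stood at 35.8 CPM in active and 34.0 CPM in silent cells (log2 0.07), with strata from -1.22 to 2.20. Across the 9 settings the ratio of Dusp6 ran from -1.11 among higher cell numbers to 0.78 among lower ones, so no direction was read. The GTPase gene Gem (chromosome 4, 11704457 to 11714752, plus strand) ran from 0 to 2825 CPM in active and from 0 to 2307 CPM in silent cells, and pooled it stood at 176.7 CPM in active and 224.8 CPM in silent cells (log2 -0.35). Its direction differed by time: active cells were lower by day, at -1.18 in cFOS+ and -0.87 in cFOS- cells, and higher at night, at 0.32 and 0.23 in the same order. The highest Gem group was the 17 day silent cFOS+ cells, at 548.1 CPM with a median cell of 253.5 CPM, and the lowest was the night silent cFOS+ cells, at 97.9 CPM with a median of 0.

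**Figure D3:**
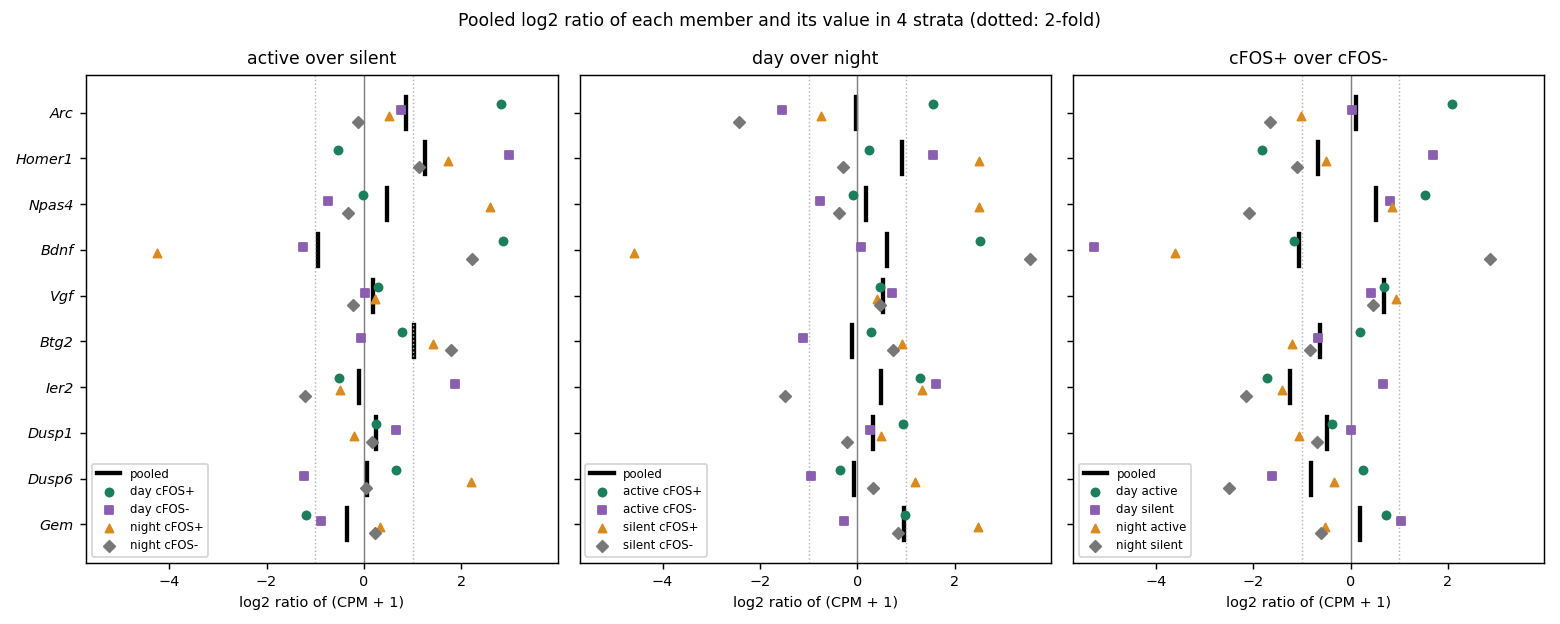
Log2 ratio of (CPM + 1) of each member (vertical axis) for active over silent, day over night and cFOS+ over cFOS- cells, as the pooled value (black bar) and in the 4 strata of the other factors (symbols); dotted lines mark 2-fold. Strata spread widely for Bdnf, Npas4 and Dusp6, and for Vgf they stay between -0.23 and 0.93.

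Gem belongs to the RGK family of small GTPases with Rrad and Rem2, and all bind the beta subunit of voltage-gated calcium channels and lower calcium currents. Of these, Rrad stood at 667.3 CPM in active and 250.8 CPM in silent cells, a log2 ratio of 1.41, and was higher in active cells in all 4 strata (0.23 to 2.27). Rem2 was at 81.8 CPM in active and 43.4 CPM in silent cells (log2 0.90), also higher in all 4 strata. Of all genes, 7.48% were higher in active cells in all 4 strata and 6.3% were lower in all 4. Gem went the other way in the pooled value and in all 9 settings, at -0.06 with the mean over cells and -0.03 among lower cell numbers. By cell the order was the reverse: a thinned Gem read was found in 50.3% of active and 40.4% of silent cells, with overlapping intervals. The upper quartile of cells began at 285.5 CPM of Gem in active and 210.3 CPM in silent cells. Over cells Gem had a correlation of -0.041 with Rrad and -0.041 with Rem2. Exons of Rrad overlap the antisense gene Gm33023. Both relatives come from a list of 33 receptors, channels, kinases and other partners of the members, of which 18 of 32 measured were higher in active cells, with a median of 0.13 (all genes: 50.6% higher, median 0.01). In that list Sort1, which sorts proBDNF into secretory vesicles, was at 27.8 CPM in active and 12.9 CPM in silent cells (log2 1.05, 3 strata), and was past 2-fold in 4 of 9 settings. Over all 32 measured genes of the list the lowest ratio was -1.70, and 1 gene was at least 2-fold lower (6.28% of all genes). Among those with at least 20 CPM in either group, Homer3 was the lowest, with a pooled ratio of -0.28 and 2 strata lower. The L-type channel subunit Cacna1c followed at -0.26, with both day strata lower and both night strata higher. Arnt2, a dimer partner of NPAS4, had a pooled ratio of -0.23, but it was higher in active cells in 3 of 4 strata (0.28, 0.61 and 0.08, against -0.85 in night cFOS- cells) and lower in 3 of 9 settings, so no direction was read for it.

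Of 36 measured genes in a list of 40 other activity-induced genes, 26 were higher in active cells, with a median log2 ratio of 0.29. For the 10 members the count was 7 with a median of 0.22, and 50.6% of all genes were higher, with a median of 0.01. Over the 36 genes the highest ratio was 2.23, and 5 were at least 2-fold higher (7.21% of all genes). Among those with at least 20 CPM in either group, the transcription factor gene Klf4 was the highest (38.2 CPM in active and 11.6 CPM in silent cells, log2 1.64). Next came the transcription factor genes Fosl1 (33.9 and 16.3 CPM, log2 1.01) and Crem (70.6 and 36.7 CPM, log2 0.93), each pair active first. Klf4 was higher in all 4 strata, at 0.13 in night cFOS- cells. In day cFOS- cells Fosl1 was at -2.02 and Crem at -0.50, and both were higher in the other 3 strata. Lowest among the genes of the list at 20 CPM or more was the phosphatase Dusp14, at 131.1 CPM in active and 188.1 CPM in silent cells (log2 -0.52). Tiparp followed at -0.18 and the granin Scg2 at -0.13. Fos itself was at 2479 CPM in active and 2119 CPM in silent cells, a log2 ratio of 0.23 with all 4 strata higher in pooled reads. In night cFOS+ cells the ratio was only 0.07, and by cell the order was the reverse. The medians there were 1037 CPM in active and 1093 CPM in silent cells, and the means 1652 and 1728 CPM. In the other strata medians and means of Fos were higher in active cells.

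By day, Gem, Homer1 and Vgf were higher than at night, and no member passed 2-fold in either direction among 127 day and 156 night cells. Among all genes 7% were at least 2-fold higher and 7.44% at least 2-fold lower by day. Vgf had the most even difference. It ran from 0 to 1626 CPM by day with a median of 192.01 CPM, and from 0 to 1134 CPM at night with a median of 147.0 CPM. Summed, day cells had 307.7 CPM (306.5 to 308.8) and night cells 213.1 CPM (212.2 to 214.0), a log2 ratio of 0.53 with 0.41 to 0.71 in the 4 strata. Of all genes, 5.95% were higher and 7.95% lower by day in all 4 strata. Among cells with higher numbers in their titles the log2 ratio of Vgf was -0.0018, and among those with lower numbers it was 0.96.

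Gem had 269.8 CPM in day and 137.6 CPM in night cells (log2 0.97), with a median cell of 5.003 CPM by day and 0 at night and 3 strata higher. Homer1 had 93.1 CPM in day and 48.8 CPM in night cells (log2 0.92), also with 3 strata higher. The shares of cells with a thinned read differed less than the levels: they were 50.9% by day and 42.4% at night for Gem, and 47.4% by day and 45.3% at night for Homer1, with overlapping intervals. Bdnf (0.62), Ier2 (0.48), Dusp1 (0.33) and Npas4 (0.18) had smaller positive log2 ratios, and Arc (-0.03), Dusp6 (-0.07) and Btg2 (-0.11) lay at about 0. For Arc the pooled value combined groups of opposite direction, with 517.96 CPM by day and 174.4 CPM at night in active cFOS+ cells, and 70.6 CPM by day and 383.4 CPM at night in silent cFOS- cells. One night neuron held 69.7% of the night silent cFOS- reads. Of the other activity-induced genes 35 were measured here and 26 were higher by day, with a median of 0.31. For the members the count was 7 of 10 with a median of 0.41, and 47.8% of all genes were higher by day.

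Markers of other cells also differed by time. Of 11 microglia markers 11 were higher by day, 9 of them at least 2-fold, and their summed level ran from 0 to 34382 CPM by day (median 55.6) and from 0 to 31204 CPM at night (median 3.11). Of 10 astrocyte markers 8 were higher by day, and their summed level ran from 0 to 8406 CPM by day and from 0 to 1201 CPM at night. No marker of these lists was at 0 over all cells. Without the cells with at least 100 CPM of microglia markers, the day over night log2 ratio was 1.26 for Gem, 1.38 for Homer1 and 0.53 for Vgf, and -0.67 for Bdnf, which turned its direction. Arc (0.48), Btg2 (0.31) and Dusp6 (0.25), which lay just below 0 with all cells, stood above 0 without the marker-bearing cells. Dusp1 moved to 0.71, while Ier2 was at 0.55 and Npas4 at 0.03. The direction of 4 members by time of day thus differed with and without these cells.

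In pooled reads, the cFOS label went against the Fos transcript. Cells labelled cFOS+ had 2005 CPM of Fos and cells labelled cFOS- had 2676 CPM, a log2 value of -0.42 with the same direction in all 4 strata. Of all genes, 7.48% were lower in all 4. Fos ran from 0 to 11175 CPM with a median of 1115 CPM in 143 cells labelled cFOS+, and from 0 to 15716 CPM with a median of 1583 CPM in 139 cells labelled cFOS-. The groups overlapped almost fully. The labels do not say what the cFOS label rests on.

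Among cells labelled cFOS+, Ier2 and Bdnf were at least 2-fold lower than among cells labelled cFOS-, against 8.29% of all genes, and no member was 2-fold higher (5.74% of all genes). Ier2 ran from 0 to 1444 CPM in cells labelled cFOS+ and from 0 to 4307 CPM in cells labelled cFOS-, with a median of 0 in both. Cells labelled cFOS+ together had 64.9 CPM (64.4 to 65.4) and those labelled cFOS- had 154.6 CPM (153.8 to 155.4), which is -1.24 on the log2 scale. It was lower in 3 strata, at -1.72 in day active, -1.41 in night active and -2.14 in night silent cells, and higher in day silent cells at 0.67. In each stratum a single cell weighed heavily on 1 side. Such a cell held 52.6% of the Ier2 reads of day active cFOS- and 55.3% of night silent cFOS- cells. It held 61.2% of those of night active cFOS+ and 77.7% of day silent cFOS+ cells. Leaving out the highest cell of each label gave a pooled ratio of -1.15. A thinned read was found in 26.8% (19.3 to 35.4%) of cells labelled cFOS+ and 40.5% (31.8 to 49.6%) of cells labelled cFOS-. The 2 intervals overlap. Ier2 was past 2-fold under all 9 alternative settings, where its ratio lay between -1.87 and -1.14.

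Bdnf was at 7.89 CPM in cells labelled cFOS+ and 17.5 CPM in cells labelled cFOS- (log2 -1.06), read in 12 and 22 cells, cFOS+ first, and among lower cell numbers the ratio was -0.17. Dusp6 was at 25.4 CPM in cells labelled cFOS+ and 45.2 CPM in cells labelled cFOS- (log2 -0.81), with a thinned read in 14.2% (8.62 to 21.5%) and 28.6% (20.9 to 37.3%) of them. Homer1 (-0.67), Btg2 (-0.63) and Dusp1 (-0.49) were lower too, each in 3 strata. Vgf was the exception with all 4 strata higher in cells labelled cFOS+: 312.5 CPM (311.4 to 313.6) with a median cell of 220.5 CPM, against 193.3 CPM (192.4 to 194.2) with a median cell of 110.5 CPM in cells labelled cFOS-. Its log2 ratio was 0.69 (strata 0.41 to 0.93), and 5.68% of all genes were higher in all 4 strata. Npas4 had a ratio of 0.52, Gem of 0.19 and Arc of 0.10. Microglia markers were lower in cells labelled cFOS+ for 10 of 11, with a median log2 ratio of -0.64. Their summed level ran from 0 to 34382 CPM in cells labelled cFOS+ and from 0 to 31204 CPM in cells labelled cFOS-, with 30.8% of the cFOS+ and 44.6% of the cFOS- cells at 100 CPM or more. Without those cells, the log2 ratio was -1.87 for Ier2, -0.75 for Bdnf, -0.46 for Dusp6 and 0.55 for Vgf. Btg2, at -0.63 with all cells, was at -0.17 without them, and Npas4, at 0.52 with all cells, was at 0.01. Homer1 (-0.78) and Dusp1 (-0.50) stayed lower, Arc was at 0.64 and Gem at 0.05.

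Cell by cell, Dusp1 followed Fos most closely, then Btg2 and Arc, and the other 7 members stayed under 0.3. Over all active and silent cells the Spearman correlation with Fos was 0.555 for Dusp1, 0.465 for Btg2 and 0.317 for Arc. For Dusp1 it was at least 0.3 in all 8 groups, from 0.431 in night active cFOS+ to 0.668 in day silent cFOS+ cells. For Btg2 it reached 0.3 in 6 groups, from 0.219 to 0.594, and for Arc in 5, from 0.013 to 0.469. Within groups, Dusp6 reached 0.3 in 4 (-0.071 to 0.418), Ier2 in 3 (-0.248 to 0.341), and Homer1, Bdnf and Gem in 1 each. By this count Arc was little apart from Dusp6. These points share the library and its total, and Fos had a correlation of 0.0061 with total reads, 0.015 with detected genes and 0.0062 with the summed microglia markers. Without the 106 cells carrying microglia markers, the values were 0.543 for Dusp1, 0.451 for Btg2 and 0.249 for Arc.

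**Figure D4:**
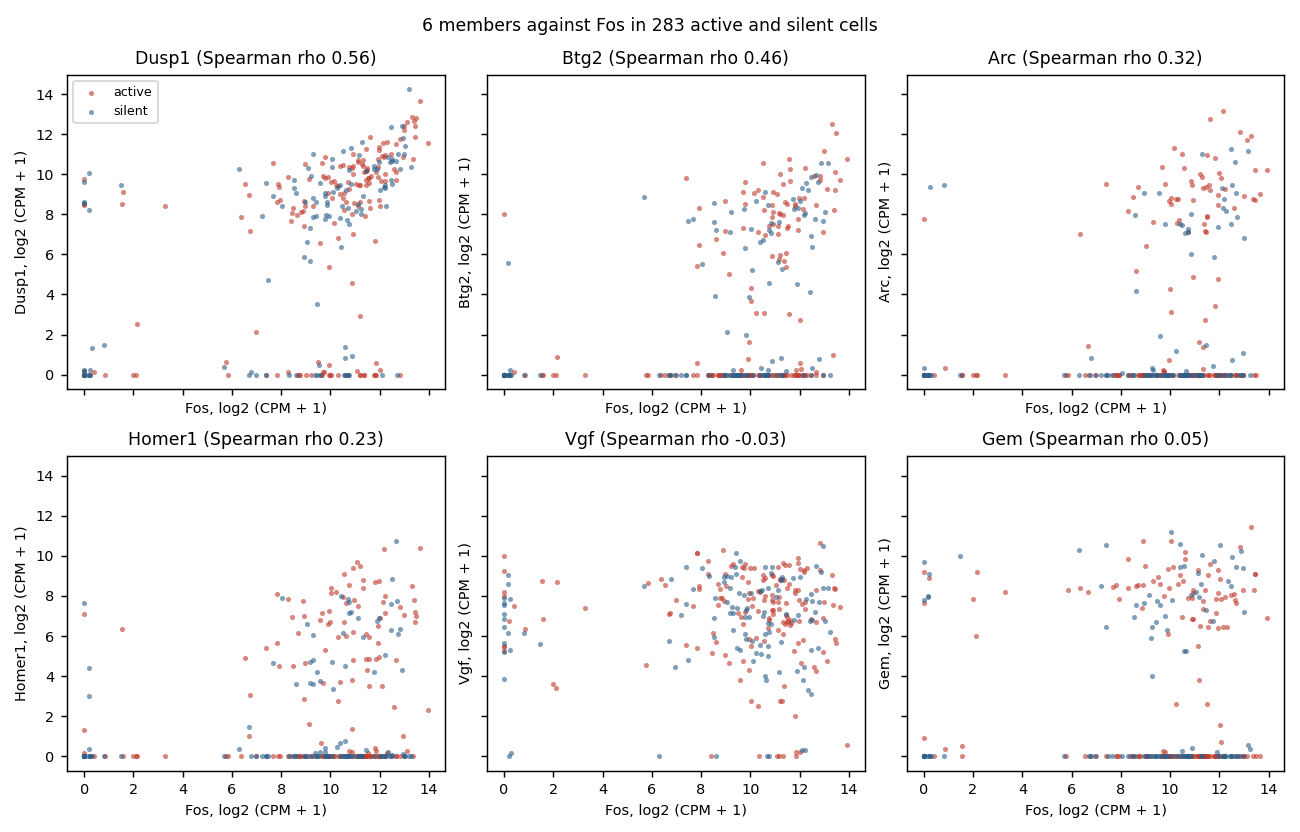
Level of 6 members (vertical axes) against Fos (horizontal axes), both as log2 (CPM + 1), in the 165 active and 118 silent cells, with active cells in red and silent cells in blue. Dusp1 climbs with Fos in active and silent cells alike (Spearman correlation 0.555 over both), whereas Vgf (-0.028) and Gem (0.054) show no slope.

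Homer1 and Dusp6 had correlations of 0.229 each with Fos, Npas4 of 0.166, Ier2 of 0.165, Gem of 0.054, Bdnf of 0.033 and Vgf of -0.028. Values under 0.3 in sparse counts were not read. Of the 111 cells with an Arc read 109 also had a Fos read, as did 146 of 147 with Btg2 and all 57 with Npas4, while Fos was read in 94.3% of all cells. In all 3 genes that followed Fos, Fos ranked high among the 6973 genes compared: it was the first for Dusp1, the second for Btg2 and at place 6 for Arc. The AP-1 gene Junb and the transcription factor gene Egr1 were within the first 3 of each, with Junb at 0.470 for Dusp1, 0.473 for Btg2 and 0.372 for Arc, and Egr1 at 0.443, 0.384 and 0.416 in the same order. Vsnl1, a neuronal calcium sensor, was the second most like Arc (0.382). Exons of Dusp1 overlap those of Ergic1 on the other strand, and over the same cells Dusp1 had a correlation of 0.072 with Ergic1.

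**Figure D5:**
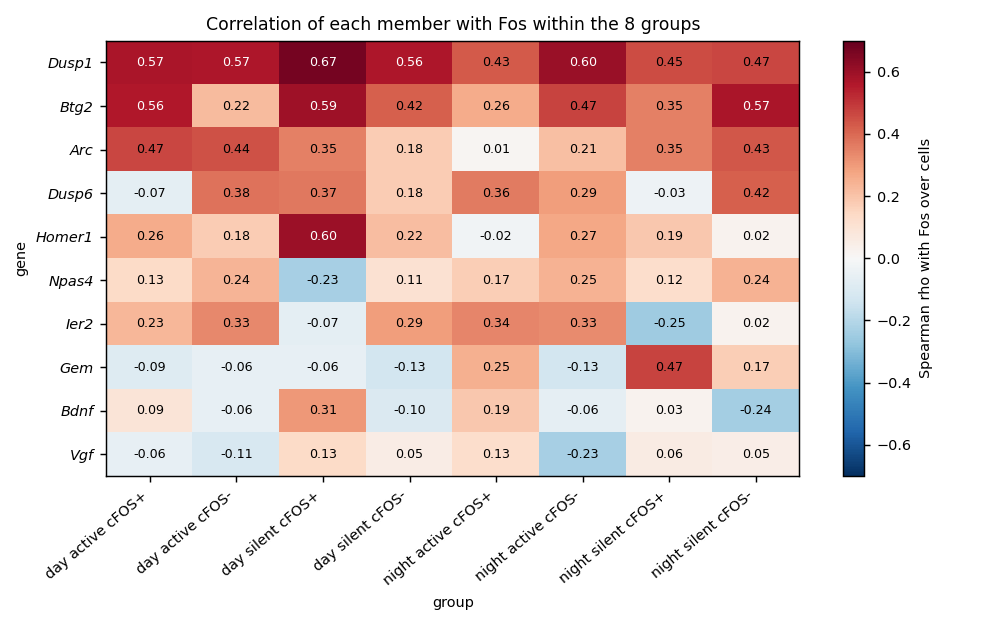
Spearman correlation with Fos over the cells of each of the 8 groups (columns) for the 10 members (rows), coloured from blue (negative) to red (positive). Dusp1 is at 0.431 or more in every group, and Vgf stays between -0.234 and 0.135.

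The other members resembled other genes. Vgf was most like Gad1 (0.360), Syt4 of dense-core vesicles (0.313) and the SCN peptide gene Nms (0.274), and Fos stood at place 4475 of 6973 for it. Gem was most like the clock repressor gene Nr1d1 (0.297), Ppp1r17 (0.294) and March8 (0.288), all just under 0.3. Homer1 was most like Junb (0.318), Mrps6 (0.311) and Sidt2 (0.2999). For Npas4 (Setdb1, Rbfox2 and Zbtb7a), Ier2 (Rora, Vipr2 and Scg2), Dusp6 (Irf2bpl, Lrfn5 and Galnt16) and Bdnf (Fam73b, Pgd and Stmn3) no gene reached 0.3.

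Reads of several members were common in 1 cell, but their levels varied together in few pairs. Among their 45 pairs the median correlation over cells was 0.081, and 2 pairs reached 0.3, Btg2 with Dusp1 at 0.375 and Arc with Btg2 at 0.324. A thinned cell had reads of 4 members at the median and of 1 to 9 in all, so no cell lacked all 10 and none had all 10. In 8 cells 1 member alone was read, and in 12 cells 8 or more were. Of the 147 cells with a Btg2 read 134 also had Dusp1, the second most widely read member. The mean number ran from 3.80 ± 1.75 in night silent cFOS+ cells (SD over 30 cells) to 4.93 ± 1.63 in night active cFOS- cells (SD over 42 cells), a difference within the spread of cells in either group.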

How the data were processed

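Per the labels' protocols, cytoplasm of single neurons was drawn through the patch pipette and sequenced with the Nextera XT kit. The authors deposited raw read counts of 22800 genes in 298 cells, and normalized values, a signal that is the count over 1 scaling factor for each cell. The deposited table of logarithms was not used. STAR, DESeq2 and the build GRCm38.p4 are named, without their roles, per the submitters' processing notes. Versions, annotation, counter and strand setting were not given in the sources used here, and no molecular identifier is mentioned, so counts are reads.

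Counts were turned into CPM with pandas 2.3.3 and numpy 2.4.6, and intervals and correlations came from scipy 1.17.1. Group levels were summed reads over summed totals, with exact Poisson intervals. Folds are log2 of (CPM + 1) ratios, with 2-fold as a call. The background held genes with at least 5 CPM in either group. Shares of cells with at least 1 read were taken after thinning each cell to 4210000 reads, which left out 29 cells, and without the near-identical pair, with exact Clopper-Pearson 95% intervals. The Poisson intervals cover the counting of reads only. The intervals of shares cover the drawing of cells, with each cell taken as independent. Neither kind covers animals or slices. Because the labels name no animal, no p-value was computed, and correlations over cells are descriptions. The ratio step was tested on simulated data, in which the changed genes had 20 CPM or more and the same spread in every cell. That test does not cover genes whose reads sit in a few cells. Each contrast was repeated in 4 strata and under 9 other settings. Gene positions and overlaps came from GENCODE M21, and promoters from RefSeq.

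The near-identical pair had a chi-square of 4.55 per degree of freedom, where 1190 further pairs from these groups had 408.9 or more. The members and lists were chosen with earlier results of these data known. Beside the members and Fos, the 3 highest and 3 lowest genes of each list in active over silent cells at 20 CPM or more were named, and for each member the 3 genes most alike over cells among those read in at least 25% of them. Gene names that could not be matched to a promoter are named without one.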

Additional observations from a re-analysis of the deposited data

Results flagged for a closer look

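The depolarized cells were used in no comparison above. Pooled over all 14, Npas4 (20.8 CPM), Bdnf (51.6 CPM) and Btg2 (484 CPM) stood above each of the 8 active and silent groups. Bdnf was read in 2 of these cells, 1 of which had 757 CPM, and Npas4 in 4. Btg2 was read in 11 of the 14, from 0 to 2939 CPM with a median of 67.2 CPM.

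Among the 7 day depolarized cFOS- cells, the highest cell lay far from the others for Arc (2264 CPM), Dusp6 (4.47 CPM) and Bdnf (0.160 CPM). Dixon's limit flags about 1 in 20 groups by chance only where values are normally spread. Most of the 7 cells had no read of these genes, so that rate does not hold here. Where a single cell has a read, as for Bdnf, that cell is flagged whatever its level. No conclusion was drawn from these flags. Dusp6 was read in 2 of the 7 cells. The Arc value was 1 of 2 cells with a read, and the Bdnf value was the only cell with a read.

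Opposite directions in paired strata were seen 4 times, and none of these differences was tested. The share of all genes with such a pattern is not given here, so the count of 4 has no background. For active over silent cells, Gem differed by -1.30 on the log2 scale between day and night, being lower in active cells by day and higher at night. For day over night, Dusp6 differed by -1.41 between active cells, where day was lower, and silent cells, where day was higher. For cFOS+ over cFOS-, the day value less the night value was 2.4 for Arc and 1.44 for Gem, both higher in cells labelled cFOS+ by day and lower at night. For Arc the day side lay in active cells (2.09), with silent cells nearly level (0.04). A single cell held 69.7% of the Arc reads of night silent cFOS- cells, and another 43.6% of those of night active cFOS- cells.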

How the results depend on the processing

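No ratio past 2-fold changed direction under any alternative. The 2 members past 2-fold higher in active cells, Homer1 and Btg2, became 1 with the mean over cells, where that gene was Arc (1.43) and both Homer1 (0.94) and Btg2 (0.95) fell short. It was 1 with the mean of strata or a pseudocount of 10 CPM, where it was Homer1, and 0 among lower cell numbers. The count stayed at 2 without cells with microglia markers, without each group's top cell and with the normalized values, but the genes were Homer1 and Arc. It was 3 among higher cell numbers, with Homer1, Arc and Btg2. The count of 0 members past 2-fold lower in active cells became 1 without the top cell of each group, 2 among higher cell numbers and 1 at 1.5-fold. The count of 0 past 2-fold higher by day became 1 with the mean over cells, the normalized values or higher cell numbers, 2 with the mean of strata, lower cell numbers or without cells with microglia markers, and 3 at 1.5-fold. For cFOS+ over cFOS-, the count of 0 higher became 1 at 1.5-fold. The count of 2 lower became 1 with a pseudocount of 10 CPM, without cells with microglia markers or among lower cell numbers, each time Ier2, and 5 at 1.5-fold. The cause of these shifts was not tested, except that 1.5-fold admits more genes. The number of members with a correlation of at least 0.3 with Fos was 2 or 3 throughout. Single log2 ratios mostly moved by more than the counting of reads allows and stayed within it in 89 repeats, while shares of cells left their interval in 3 repeats. For Bdnf, Npas4 and Dusp6 the few cells with reads limit every ratio. No paired analysis was possible because the numbers in the titles name single cells and pair no samples across groups.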
